A study of Sus scrofa with 24 samples.

Results

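Molecular chaperones of the heat shock families were examined in pig hearts with an old infarct. Members were chosen by name: every array probe whose gene symbol opens with HSPA, HSPB, HSPD, HSPE, HSPH, HSP90 or DNAJ, or with BAG and a number, was included. In all 110 of 43603 probes met this rule, and they stand for 36 of the 6941 genes that could be named. For 33 of the 36 genes a probe lay well above background on at least 3 of the 24 arrays, and these 33 are described. The other 3 genes, DNAJC5B, DNAJC6 and HSPA12A, did not reach this minimum and were not tested. The rule also takes in HSPBAP1, which binds a small heat shock protein and is not itself a chaperone.

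The animals were domestic pigs given aspirin and clopidogrel in both arms. Their hearts had been infarcted by a closed-chest procedure with reperfusion. Treatment was injected into the heart muscle through a catheter 1 month later, and tissue was collected after another month. One arm received secretome, the products released by apoptotic peripheral blood mononuclear cells, and the other arm received medium as placebo. Pigs 10, 18 and 40, which the labels call not treated, were taken as the medium arm. The medium arm gave 3 arrays of infarct core, 3 of border zone and 2 of normal region, and the secretome arm (pigs 11 to 16) gave 6, 6 and 4. The border zone was the injected tissue, and the normal region lay away from the infarct. The age of the pigs is not given in the sources used here. No healthy heart was among the samples analysed, so the normal region is tissue of an infarcted heart.

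Chaperones bind unfolded stretches of other proteins and either hold them or help them fold. HSP70 proteins (the HSPA genes) work in cycles of ATP hydrolysis that J-domain proteins (the DNAJ genes) start and that exchange factors such as the HSP110 and BAG proteins end, while HSP90 acts later on partly folded clients. Small heat shock proteins (HSPB) hold unfolded proteins without ATP and are abundant in heart muscle, where they protect the sarcomere, and HSPD1 with HSPE1 forms the folding chamber of mitochondria. Other members serve the endoplasmic reticulum, in which secreted proteins such as collagen are folded.

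The probes are 60-base oligonucleotides, of which 30-base stretches are printed, read from the array files. The first set shows the HSP70 genes, whose coding sequences are so alike that a probe could read several of them. Written from the first base of each probe, they are:
HSPA1L: agtttcttcttcctgtgtggatggttattt
HSPA5: tttctacagcctctgataatcagccaactg
HSPA6: gcagaagtaaccatttatgaacatttgtgt
HSPA8: cacagggaaaggaaattacattgcacttta
HSPA13: cttcagcaacatcagaacatttcagcttct
Over whole probes, the longest run of bases shared by probes of different HSP70 or HSP110 genes was 9, over 35 pairs of probes, and for the 3 HSP90 genes it was 10, over 132 pairs. Whether a probe also reads the transcript of a related gene was not tested.

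Several members have many probes, some of which overlap and so are not independent readings. DNAJC19 has 7 probes, and 3 of them read the same place, shown with a shared run of 20 bases in capitals:
DNAJC19 probe 1: aggatCTCCTTATATAGCGGCCAAAatcaa
DNAJC19 probe 2: gatCTCCTTATATAGCGGCCAAAatcaatg
DNAJC19 probe 3: CTCCTTATATAGCGGCCAAAatcaatgaag
DNAJC19 probe 4: tttcttgccttccacaaggaaggtttacaa
Probes 1 to 3 gave log2 differences between infarct core and normal region of -1.68, -1.63 and -1.65, and probe 4, the dimmest of the 7 DNAJC19 probes, gave -0.70. The 20 HSPD1 probes fall into 7 groups without a shared run of 20 bases. DNAJB1 is shown with a probe that the array files describe by likeness to cattle DNAJB1 without giving it a symbol, and which is therefore outside the rule:
DNAJB1: cccagggagggctttcgtactgctgaatgt
described as DNAJB1: ccaggaagggacttctcccactggctgaat
Their longest shared run over the whole probes is 9 bases, and they moved in opposite directions: DNAJB1 by 0.79 ± 0.11 and the probe without a symbol by -2.20 ± 0.45 (log2 difference ± SE, infarct core minus normal region, limma adjusted p = 0.000364 for the latter). Which transcript the second probe reads was not tested.

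The signal of a probe is given as log2 relative signal, the log2 of its processed signal over the 75th percentile of its array; it is not comparable between probes. Background was exceeded clearly by 61.5% to 75.6% of an array's probes, and no member's spot was saturated. Heart muscle markers were present in every region: the mean log2 relative signal of 13 cardiomyocyte markers was 8.51 to 9.14 in the normal region, 7.55 to 9.11 in the border zone and 2.53 to 8.66 in the infarct core. The infarct core of pig 40 (medium) gave the lowest of these values, 2.53, against 6.18 to 8.66 in the other 8 cores. The 6 fibroblast markers averaged 1.91 to 3.66 in the normal region and 4.84 to 6.28 in the core, and the 10 macrophage and monocyte markers 1.25 to 2.09 and 2.47 to 4.23. All 6 fibroblast, all 10 macrophage and monocyte and all 4 T cell markers rose between normal region and core, and 3 of 6 endothelial markers fell. Arrays were scanned in 2 series that hold both arms and all regions (pigs 12, 13, 16, 18 and 40, and pigs 10, 11, 14 and 15). Directions and lost calls within each series are given for the comparisons of the infarct core. In such bulk tissue, fewer cells of a type and less RNA per cell cannot be told apart.

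The first comparison asks how the chaperone transcripts of the scar differ from those of muscle away from it. More members were lower than higher in the infarct core: 20 of 33 fell, 7 rose and 6 did not pass the threshold (limma, Benjamini-Hochberg adjusted p under 0.05 over all probes). Among all 6205 named genes, 30.9% fell and 27.4% rose. With quantile normalization 16 members fell and 8 rose, against 9771 and 8779 of the 34362 kept probes. After normexp correction with quantile normalization these were 16 and 8, against 9308 and 8532 probes. In the authors' deposited values, which hold 32 of the members, 15 fell and 7 rose, against 7000 and 6347 of 26223 probes. The median log2 difference was -0.60 over the 33 members and -0.07 over all named genes. All 4 small heat shock proteins and all 3 mitochondrial chaperones fell. Of 5 members grouped as endoplasmic reticulum (HSPA5, HSPA13, HSP90B1, DNAJB11 and DNAJC3) 3 rose and none fell. That group leaves out DNAJB12 and DNAJC18 of the endoplasmic reticulum membrane, of which DNAJB12 fell and DNAJC18 did not pass. All 7 that rose were higher in the core in each of the 6 pigs with both regions, and 16 of the 20 that fell were lower in each. The small heat shock proteins and mitochondrial members stayed below 0 under all 4 scalings of the arrays. Across all kept probes, 25.4% were called higher and 27.6% lower, against which the counts of probes given for single members stand. Each scan series alone leaves some groups with 1 array, so counts of calls within a series are not given. Each of the 27 members called had the same direction in both series. The calls of BAG3, DNAJB11, HSP90AA1, HSPA4L and HSPB3 were lost in both. Those of BAG6 and HSPH1 were lost in the first series only, and those of DNAJC17, DNAJC21, HSP90AB1, HSPB1 and HSPB8 in the second only.

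**Figure D1:**
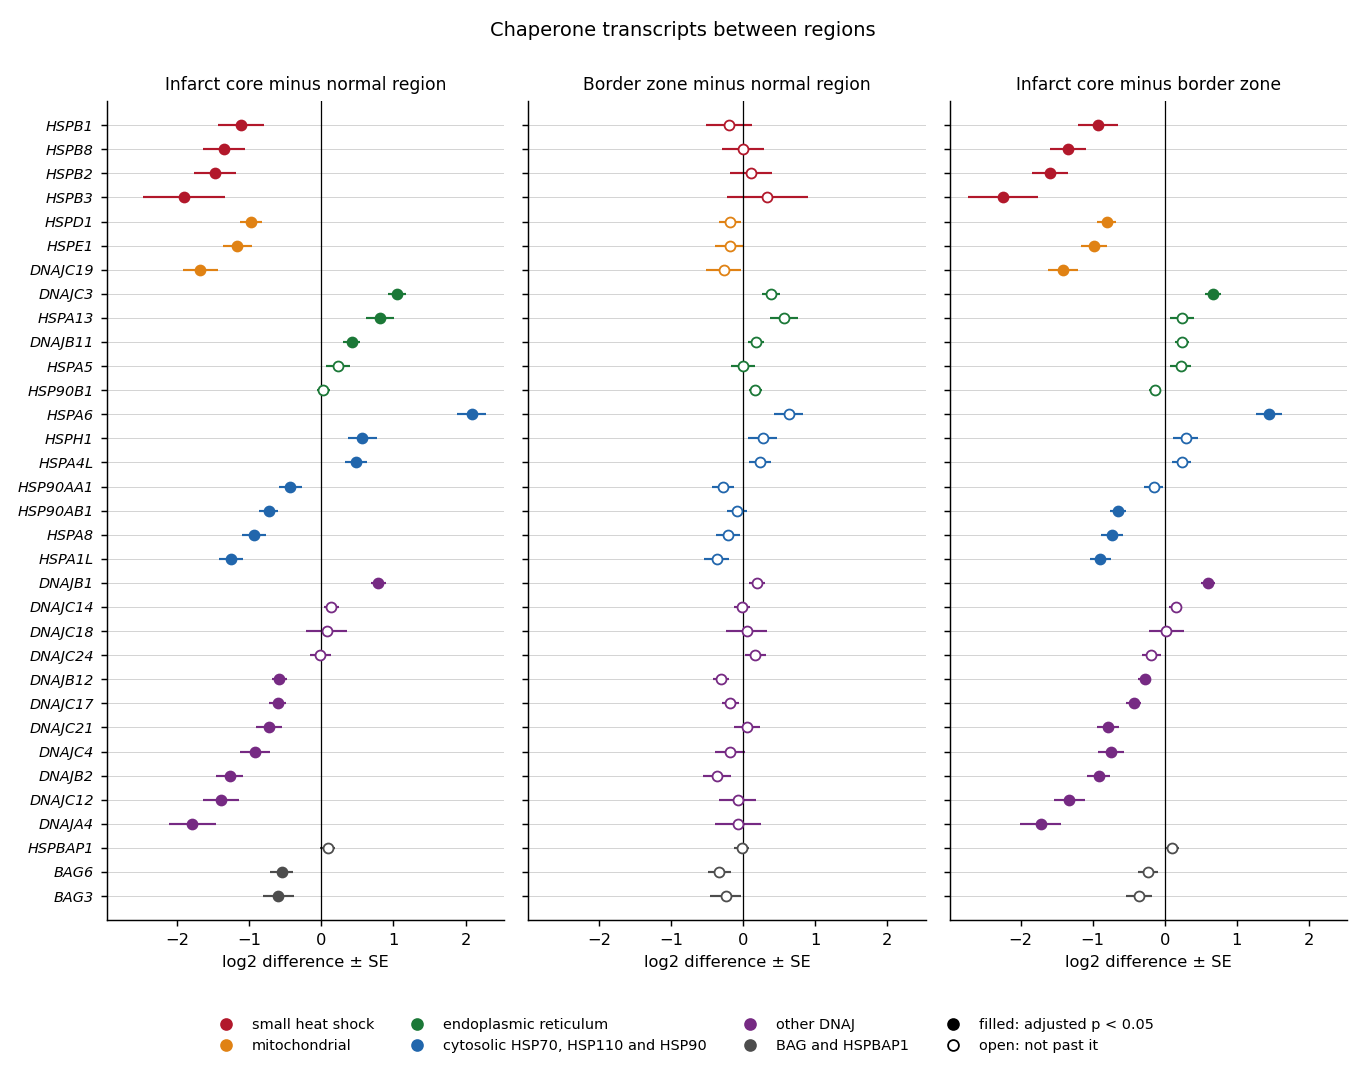
Log2 difference with its SE for each of 33 chaperone genes (rows, coloured by class) between infarct core and normal region, border zone and normal region, and infarct core and border zone; filled points passed limma's adjusted p of 0.05. The 4 small heat shock proteins (-1.91 to -1.12) and 3 mitochondrial members (-1.68 to -0.98) lie left of 0 against the normal region, HSPA6 lies farthest right at 2.08, and no point of the middle panel is filled.

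The small heat shock proteins had the lowest median of the classes, -1.42 on the log2 scale. HSPB3, a small heat shock protein found mainly in muscle, had a log2 relative signal of 3.77 to 4.94 (median 4.30) in the 6 normal regions and -3.09 to 4.43 (median 2.93) in the 9 infarct cores. The core of pig 40 lay far below the other 8 cores, and the cores of pigs 11 and 15 overlapped the normal range. The difference was -1.91 ± 0.57 (limma adjusted p = 0.00743, lower in 6 of 6 pigs), and -1.23 without the core array of pig 40. Neither scan series alone passed, at -2.68 (adjusted p = 0.0799) and -0.92 (0.0840). HSPB2, its partner in muscle, spanned 5.25 to 5.56 (median 5.38) in the normal region and 0.97 to 5.28 (median 4.11) in the core. Its ranges met only at pig 11, whose core reached 5.28, and the difference was -1.48 ± 0.29 (limma adjusted p = 0.000234, lower in 5 of 6 pigs).

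HSPB8, which with BAG3 helps send damaged filament proteins to autophagy, spanned 6.79 to 7.40 (median 6.98) in the normal region and 3.09 to 6.97 (median 5.65) in the core. The cores of pigs 11 and 15 (6.97 and 6.92) lay within the normal range and the other 7 below it. The difference was -1.35 ± 0.29 (limma adjusted p = 0.000546), or 2.55-fold lower, and within the second scan series it did not pass (-0.87, adjusted p = 0.137). All 7 HSPB8 probes fell, by -1.62 to -1.14. HSPB1, the widely expressed small heat shock protein known as HSP27, spanned 6.41 to 7.88 in the normal region and 4.30 to 7.81 in the core. It fell by 1.12 on the log2 scale (SE 0.32, limma adjusted p = 0.00551, lower in 6 of 6 pigs), and both its probes fell. Its call was lost under quantile normalization (-0.57, adjusted p = 0.102).

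The mitochondrial members fell together. HSPD1, the HSP60 of the folding chamber, spanned 5.20 to 5.32 (median 5.31) in the normal region and 3.75 to 5.09 (median 4.19) in the core, with no overlap. It fell by 0.98 on the log2 scale (SE 0.15, limma adjusted p = 1.98e-05, lower in 6 of 6 pigs), and 19 of its 20 probes fell, with log2 differences of -1.05 to -0.70 over all 20. HSPE1, the lid of the chamber, spanned 6.14 to 6.74 (median 6.61) in the normal region and 4.92 to 6.28 (median 5.19) in the core. Of the 9 cores only that of pig 15 reached the normal range, and the difference was -1.17 ± 0.20 (limma adjusted p = 7.3e-05), with 4 of 4 probes lower.

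DNAJC19 is a J-protein of the mitochondrial inner membrane that is mutated in an inherited dilated cardiomyopathy. It spanned 3.86 to 4.59 (median 4.19) in the normal region and 1.48 to 3.94 (median 2.40) in the core. Again only the core of pig 15 reached the normal range. The log2 difference was -1.68 ± 0.24, or 3.21-fold lower (limma adjusted p = 9.56e-06, lower in 6 of 6 pigs), and all 7 probes fell. Of the other mitochondrial chaperones and proteases fixed as a list, both measured genes fell: TRAP1, the HSP90 of mitochondria, by 1.38 and CLPX, the unfoldase of a mitochondrial protease, by 0.80 on the log2 scale.

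**Figure D2:**
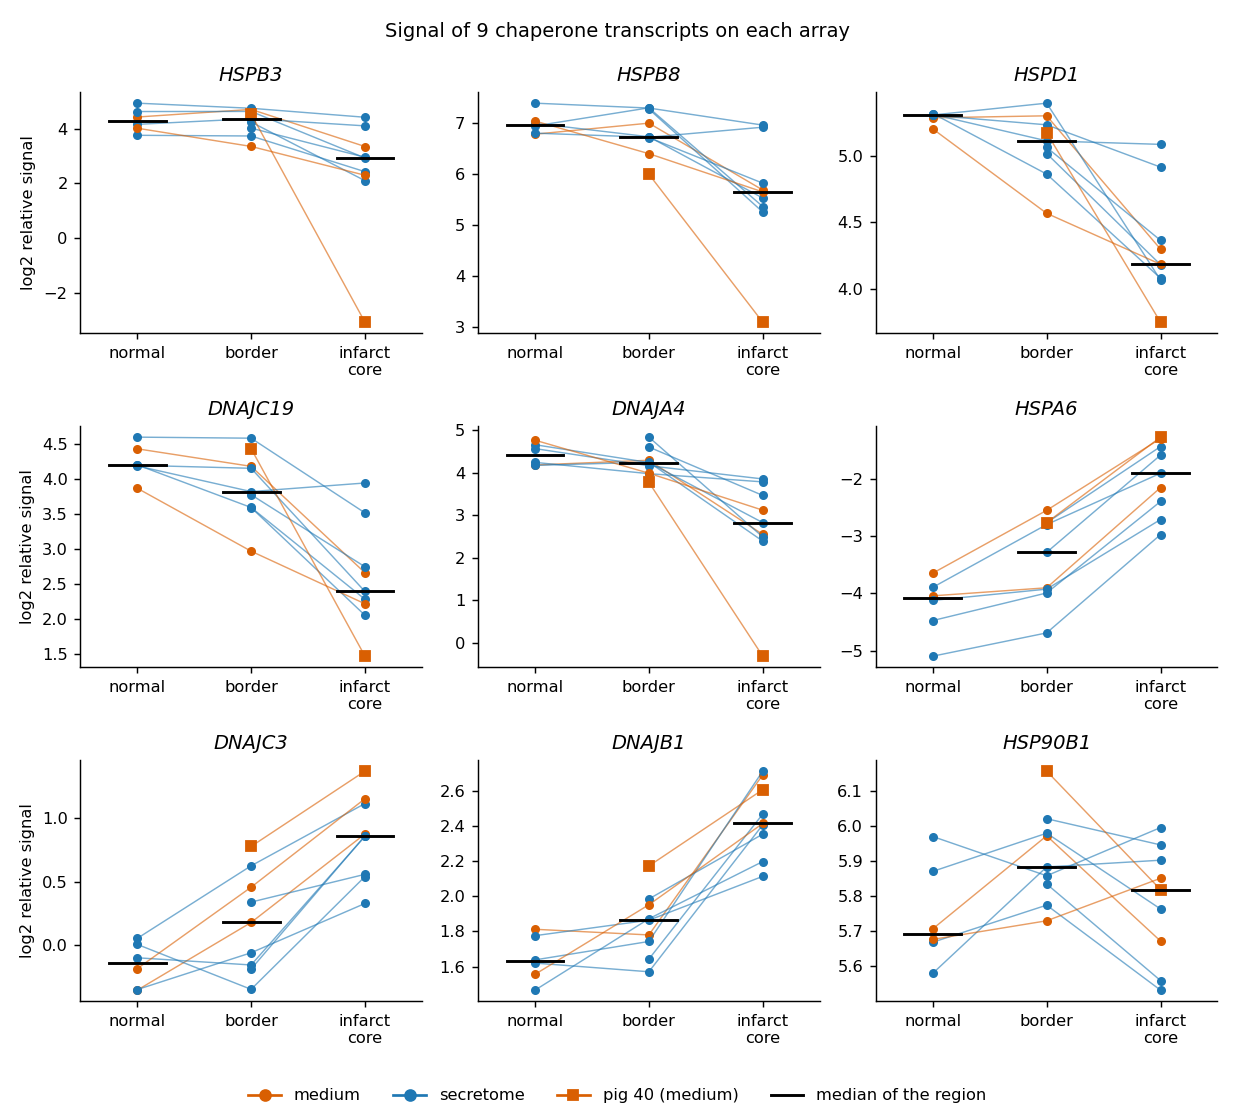
Log2 relative signal of 9 chaperone genes on each of 24 arrays, by region; thin lines join the arrays of a pig, orange marks medium, blue secretome, squares pig 40, and black bars the median of the region. HSPB3, HSPB8, HSPD1, DNAJC19 and DNAJA4 step down at the infarct core, with pig 40 lowest in each; HSPA6, DNAJC3 and DNAJB1 step up, and HSP90B1 stays between 5.53 and 6.16.

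Of the 5 members grouped as endoplasmic reticulum, 3 went the other way and 2 did not pass. DNAJC3, a J-protein that helps the chaperone HSPA5 and restrains the stress kinases of translation, spanned -0.35 to 0.05 (median -0.14) in the normal region and 0.33 to 1.37 (median 0.86) in the core. No core overlapped the normal range, and the difference was 1.05 ± 0.13, or 2.07-fold (limma adjusted p = 1.65e-06, higher in 6 of 6 pigs). HSPA13, an HSP70 relative of the microsomes, spanned -1.20 to 0.13 (median -0.95) in the normal region and -0.55 to 0.88 (median 0.49) in the core. The ranges overlapped, and each of the 6 pigs was higher in its own core, with a difference of 0.81 ± 0.20 (limma adjusted p = 0.0015).

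DNAJB11, a lumenal partner of HSPA5, spanned 0.23 to 0.84 in the normal region and 0.70 to 1.26 in the core. It rose by 0.42 ± 0.11 (limma adjusted p = 0.00385), with 2 of its 3 probes called, and passed in neither scan series alone (adjusted p = 0.0754 and 0.0750). HSPA5, the main HSP70 of the lumen, known as BiP, differed by 0.22 ± 0.17 (limma adjusted p = 0.270). HSP90B1, the HSP90 of the lumen, differed by 0.03 ± 0.09 (limma adjusted p = 0.822), and none of its 8 probes was called; under quantile normalization it was called higher, at 0.57 (adjusted p = 3.74e-05). Among 20 measured genes of a list of endoplasmic reticulum folding genes outside the rule, 13 rose and none fell, with a median of 0.63. FKBP10, which folds collagen, rose by 2.89, FKBP14 by 2.11, SDF2L1, a lumenal partner of DNAJB11, by 1.56, and XBP1, a transcription factor of the unfolded protein response, by 0.97. ATF4, ATF6 and DDIT3, other regulators of that response, did not pass (-0.27, -0.23 and -0.10). The fibroblast markers given above rose in the same arrays, and their part in these values was not tested.

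The cytosolic HSP70, HSP110 and HSP90 genes were split, with 3 higher and 4 lower of 7. HSPA6, a strictly stress-inducible HSP70 in human cells, spanned -5.09 to -3.65 (median -4.08) in the normal region and -2.98 to -1.28 (median -1.91) in the core. Every core lay above every normal region. It rose by 2.08 ± 0.20, or 4.24-fold (limma adjusted p = 2.04e-07, higher in 6 of 6 pigs), the largest rise of the 33 members on this scale. HSPA6 was dim, and on 1 normal region array, of pig 11, it was not well above background. The size of its rise differed with the processing. It was 0.85 after normexp correction with an offset of 50 and quantile normalization, and 0.51 in the authors' deposited values. HSPA6 passed in both, and which step of the processing changed the size was not tested.

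Both HSP110 genes, which exchange the nucleotide of HSP70, rose. HSPH1 spanned -0.22 to 1.16 in the normal region and 0.31 to 1.80 in the core (0.57 ± 0.20, limma adjusted p = 0.0225), and HSPA4L -5.16 to -3.98 and -4.07 to -3.61 (0.47 ± 0.15, adjusted p = 0.0129). The ranges of both overlapped, and each was higher in the core of 6 of 6 pigs. HSPA4L was dim, and its lowest normal value, -5.16, was not well above background. HSPH1 lost its call without pig 10 (adjusted p = 0.131) or pig 11 (0.0519), and HSPA4L without pig 10 (0.115).

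HSPA1L, an HSP70 best known from the testis, spanned -0.98 to -0.39 (median -0.64) in the normal region. In the core it had a median of -1.98, with a lowest value of -2.61 (pig 40). The ranges did not overlap but almost touched, with a highest core value of -0.998 and a lowest normal value of -0.982. HSPA1L fell by 1.26 on the log2 scale (SE 0.17, limma adjusted p = 5.31e-06). HSPA8, the constitutive HSP70 of the cytosol, spanned 6.04 to 7.07 in the normal region and 5.19 to 6.10 in the core, with a small overlap. It fell by 0.94 on the log2 scale (SE 0.17, limma adjusted p = 0.000111). A gene listed as HSP70.2, which RefSeq gives the synonyms HSPA1A and HSPA1B, is outside the rule by its spelling; one of its probes fell (-0.76 ± 0.25, limma adjusted p = 0.0136) and the other did not pass (-0.54 ± 0.31, 0.152).

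HSP90AB1, the constitutive cytosolic HSP90, spanned 7.16 to 7.37 in the normal region and 6.33 to 7.20 in the core, where only pig 11 reached the normal range. It fell by 0.73 on the log2 scale (SE 0.13, limma adjusted p = 0.000113), and all 6 probes fell. HSP90AA1, the inducible form, fell by 0.43 (SE 0.15, limma adjusted p = 0.0232), and only 1 of its 6 probes was called. These values turned on the scaling of the arrays. With quantile normalization HSP90AB1 differed by -0.12 (adjusted p = 0.222) and HSP90AA1 by 0.053 (0.787), so its direction turned. HSPA8 kept its call at -0.35 (0.0423), and HSPD1 and HSPE1 kept theirs at -0.57 and -0.61. Among the partners of HSP90 and HSP70 outside the rule, 8 of 13 measured genes fell and 2 rose, with a median of -0.42. UNC45B, the myosin chaperone of striated muscle, fell by 2.39, FKBP4 by 1.40 and CDC37, which brings kinases to HSP90, by 0.66, while CHORDC1 rose by 0.87. Of 7 measured genes of the TRiC chaperonin, prefoldin and tubulin folding cofactors, 4 fell and none rose, among them CCT3 (-0.65), PFDN2 (-0.83) and TCP1 (-0.64).

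**Figure D3:**
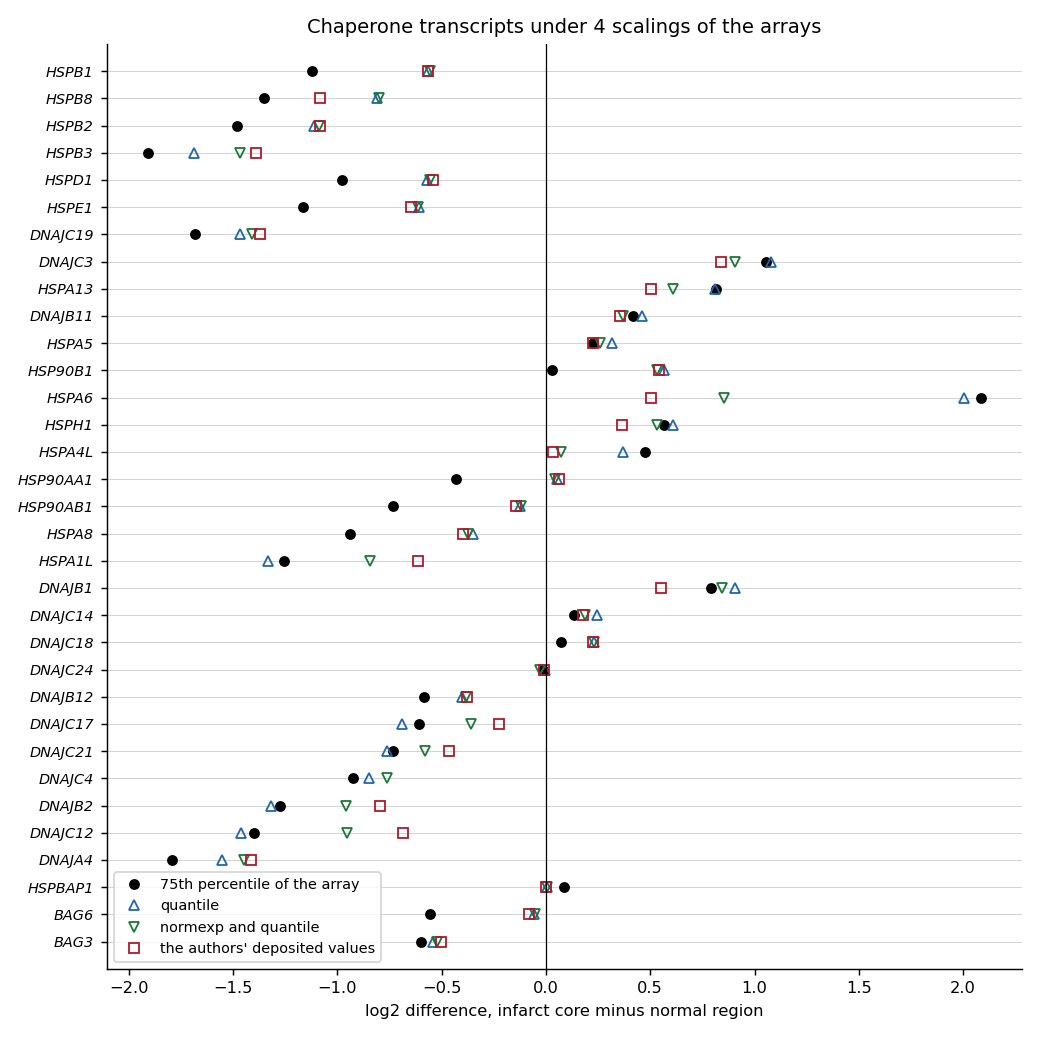
Log2 difference between infarct core and normal region for 33 chaperone genes under 4 scalings: the array's 75th percentile (black), quantile normalization, normexp with quantile normalization, and the authors' deposited values, which lack DNAJC4. HSP90B1 moves from 0.03 to 0.57 under quantile normalization, HSP90AA1 crosses 0 from -0.43, and HSPA6 shrinks from 2.08 to 0.51 in the authors' values, while the small heat shock proteins stay below 0 throughout.

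Among the 11 other J-proteins 1 rose, 7 fell and 3 did not pass. DNAJB1, the main cytosolic partner of stress-induced HSP70, spanned 1.47 to 1.81 (median 1.63) in the normal region and 2.11 to 2.71 (median 2.41) in the core. The ranges did not overlap, and both its probes rose, by 0.79 and 0.78 (SE 0.11 for the brighter, limma adjusted p = 4.95e-06). DNAJA4, a cytosolic J-protein, spanned 4.18 to 4.77 (median 4.41) in the normal region and -0.31 to 3.86 (median 2.83) in the core. Every core lay below every normal region, that of pig 40 farthest. DNAJA4 fell by 1.79 on the log2 scale (SE 0.32), or 3.47-fold, with limma adjusted p = 9.69e-05.

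DNAJC12, a partner of the hydroxylases of aromatic amino acids, spanned -0.91 to 0.17 (median -0.05) in the normal region and -2.56 to -0.62 (median -1.78) in the core. It was lower in 5 of 6 pigs (-1.40 ± 0.25, limma adjusted p = 9.5e-05), and all 3 probes fell. DNAJB2, a J-protein that hands clients to the proteasome, fell by 1.28 on the log2 scale (SE 0.19, limma adjusted p = 1.46e-05). DNAJC4 fell by 0.92, DNAJC21, which acts in ribosome assembly, by 0.73, DNAJC17, linked to splicing, by 0.61, and DNAJB12 of the endoplasmic reticulum membrane by 0.58 (limma adjusted p 9.43e-05 to 0.00194). DNAJB12 had ranges that did not overlap (3.05 to 3.44 against 2.45 to 2.94), and 4 of its 4 probes fell. DNAJC14, DNAJC18 and DNAJC24 differed by 0.14, 0.07 and -0.02 and did not pass, although DNAJC14 was higher in the core of 6 of 6 pigs. The 2 measured genes of a list of heat shock factors and their binding proteins moved apart: HSBP1, which binds the factor HSF1, fell by 0.70 on the log2 scale, and its relative HSBP1L1 rose by 2.16.

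BAG3, the exchange factor that pairs with HSPB8 and is mutated in dilated cardiomyopathy, spanned 1.63 to 2.56 in the normal region and 0.36 to 2.35 in the core. It fell by 0.60 on the log2 scale (SE 0.21, limma adjusted p = 0.0235, lower in 6 of 6 pigs), with 2 of 3 probes called, and lost its call within each scan series (adjusted p = 0.0768 and 0.160) and without pig 16 (0.0624) or pig 18 (0.136). BAG6, which guards newly made membrane proteins, fell by 0.55 (SE 0.16, limma adjusted p = 0.00634), and 4 of its 4 probes fell; quantile normalization left -0.06 (adjusted p = 0.765). HSPBAP1 differed by 0.09 ± 0.11 (limma adjusted p = 0.533). Of 5 measured Z-disc genes served by BAG3 and the small heat shock proteins, 4 fell: LDB3 by 2.87, ACTN2 by 2.30, MYOT by 1.44 and DES by 1.00, on the log2 scale.

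Chaperone and muscle transcripts were then set side by side within pigs. All 13 measured cardiomyocyte markers fell between normal region and core, with a median of -2.30. From border zone to core, the mean of the markers fell least in pig 15, by 0.10, and most in pig 40, by 5.77. HSPB8 differed by 0.20 in pig 15 and by -2.91 in pig 40, and HSPD1 by -0.03 and -1.43. DNAJA4 differed by -0.31 and -4.09 in the same pigs. In pig 11, with the next highest marker level in its core (8.25), HSPB8, HSPD1 and DNAJA4 differed by -0.34, -0.32 and -0.19. By the fall itself pig 18 came next after pig 15, with a marker difference of -0.82 against -0.86 in pig 11. In pig 18 HSPB8, HSPD1 and DNAJA4 differed by -0.75, -0.38 and -0.87. At a similar marker difference, HSPB8 and DNAJA4 thus fell further in pig 18 than in pig 11, and HSPD1 slightly further. Of the members that rose, HSPA6 was higher by 1.21 in pig 15 and 1.49 in pig 40, DNAJC3 by 0.39 and 0.59, and DNAJB1 by 0.25 and 0.43. The 9 differences of HSPA6 ran from 0.89 (pig 16) to 1.74 (pig 10). The markers and members share each array, and the part of muscle content in the members' differences was not tested.

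**Figure D4:**
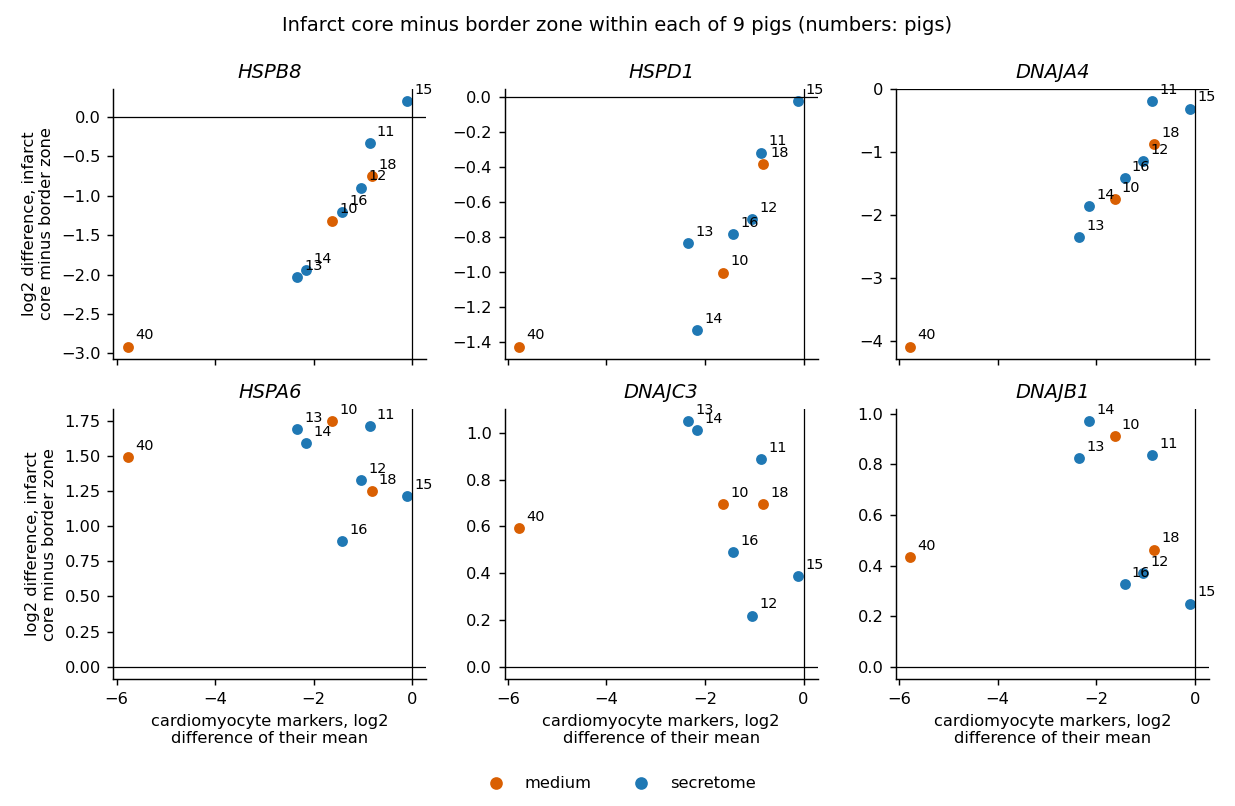
Log2 difference between infarct core and border zone within each of 9 pigs (numbers) for 6 chaperone genes, against the difference of the mean of 13 cardiomyocyte markers; orange points are medium and blue points secretome. HSPB8, HSPD1 and DNAJA4 are lowest in pig 40, where the markers fell by 5.77, and near 0 in pig 15; HSPA6, DNAJC3 and DNAJB1 are above 0 in all 9 pigs.

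The second comparison asks whether the injected tissue around the infarct differs from the normal region. None of the 33 members passed in the border zone. At limma's unadjusted p under 0.05 there were 5 of them, and 4910 of the 34362 kept probes. By the adjusted p, 0.596% of all named genes rose and 0.0161% fell. The smallest adjusted p was that of HSPA6, which spanned -4.69 to -2.55 (median -3.28) in the border zone. Its border values overlapped the normal range, it was higher in 6 of 6 pigs, and the difference was 0.63 ± 0.20 (limma adjusted p = 0.152). DNAJC3 spanned -0.35 to 0.78 and differed by 0.38 ± 0.13 (0.169), and HSPA13 spanned -1.14 to 1.13 and differed by 0.57 ± 0.20 (0.185). Both overlapped the normal range, as did every other member. DNAJB12 (-0.31 ± 0.11) and HSPA1L (-0.36 ± 0.17) were the other members with an unadjusted p under 0.05. The median over the members was -0.02 and over all named genes -0.03. The small heat shock proteins lay between -0.20 (HSPB1) and 0.34 (HSPB3), where the SE of HSPB3 was 0.57. None of the partner lists named above had a gene past the threshold in the border zone; 2 of the 6 fibroblast markers rose there. The value of HSPB3 was -0.05 with no pig block and -0.03 without the core array of pig 40.

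The third comparison is between core and border zone in 9 pigs. Here 3 members rose, 17 fell and 13 did not pass, against 25.6% higher and 26.5% lower among all named genes. With quantile normalization 6 members rose and 13 fell, against 8119 and 8066 of the 34362 kept probes. Each scan series alone leaves some groups with 1 array, so counts of calls there are not given. In the second series, with 4 pigs, most of the 17 lost their call. There HSPB2 differed by -1.12, DNAJA4 by -1.27 and HSPE1 by -0.77, and the other 14 members that fell had the same direction. In the first series, with 5 pigs, only DNAJB12 of those that fell lost its call, at -0.20. The 3 that rose were HSPA6 (1.45 ± 0.18, limma adjusted p = 6.9e-06), DNAJC3 (0.67 ± 0.11, 6.71e-05) and DNAJB1 (0.60 ± 0.09, 4.01e-05), each higher in 9 of 9 pigs. DNAJB1 spanned 1.57 to 2.17 in the border zone and 2.11 to 2.71 in the core, so that the ranges met only at their ends. All 4 small heat shock proteins and all 3 mitochondrial members fell again.

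HSPB3 spanned 3.36 to 4.76 (median 4.37) in the border zone and differed by -2.24 ± 0.49 (limma adjusted p = 0.000824, lower in 9 of 9 pigs). In pig 40 the difference was -7.64, and without that core array the fitted value was -1.20. DNAJA4 spanned 3.78 to 4.84 (median 4.24) in the border zone and fell by 1.72 on the log2 scale (SE 0.28, limma adjusted p = 5.9e-05). HSPB2 spanned 4.80 to 6.03 (median 5.41) and fell by 1.59 (SE 0.25, 4.77e-05), and DNAJC19 spanned 2.97 to 4.58 (median 3.82) and fell by 1.42 (SE 0.21, 2.94e-05). Of the 17 members that fell, 9 were lower in the core of every pig. For HSPB2, DNAJC19 and HSPB8 1 of the 9 pigs did not share the direction. HSPB8 spanned 6.00 to 7.31 (median 6.74) and fell by 1.35 (SE 0.25, limma adjusted p = 0.000196). BAG3, BAG6 and HSP90AA1 did not pass, at -0.36, -0.23 and -0.15; without the border zone array of pig 40, which had the fewest probes well above background, they did (-0.60, -0.43 and -0.35), and 20 members fell in all. HSP90B1 turned from -0.14 to 0.32 under quantile normalization (limma adjusted p = 0.00243).

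The last comparisons ask whether the secretome changed chaperone transcripts in the infarct core, the border zone or the normal region. No member passed in any of them, nor did any differ in its secretome effect between core and border zone. Of all named genes, 0% were called higher and 0.0322% lower in the core, and 0% in either direction in the border zone, in the normal region and in the difference of effects. By limma's unadjusted p under 0.05 there were 4 members in the core, 5 in the border zone, 0 in the normal region and 2 in the difference of effects. Of the 34362 kept probes, 1685, 2475, 596 and 1877 had such a p in these comparisons, in the same order. The SE of a member's secretome effect in the core was 0.17 to 1.03, and differences of over 2 SE, as for HSPB2 and HSPB3, did not pass with 6 against 3 pigs.

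In the core the 3 smallest p-values belonged to HSPB2, DNAJA4 and HSPB3. HSPB2 read 3.78, 4.25 and 0.97 in the medium cores of pigs 10, 18 and 40, and 4.08 to 5.28 (median 4.15) in the 6 secretome cores. Pig 40 stood far below, pig 10 just below, and pig 18 lay within the secretome range. The difference was 1.42 ± 0.53 (limma adjusted p = 0.974), and 0.49 without the core array of pig 40. DNAJA4 read 2.55, 3.12 and -0.31 with medium and 2.39 to 3.86 (median 3.15) with secretome (1.35 ± 0.59, limma adjusted p = 0.974), and 0.38 remained without that array. HSPB3 read 3.35, 2.30 and -3.09 with medium and 2.10 to 4.43 (median 2.95) with secretome (2.31 ± 1.03, limma adjusted p = 0.974), and 0.23 without it. For DNAJA4 and HSPB3 the medium cores of pigs 10 and 18 lay within the secretome range. The cardiomyocyte markers of pig 40's core were lowest too, at 2.53.

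In the border zone the smallest p-values were those of BAG6, BAG3 and HSPA1L. BAG6 read 6.06, 5.25 and 4.20 with medium in pigs 10, 18 and 40, and 5.56 to 6.17 (median 5.93) with secretome (0.74 ± 0.29, limma adjusted p = 0.666). BAG3 read 2.18, 1.33 and -0.23, and 1.44 to 2.49 (median 2.13) with secretome (0.95 ± 0.39, limma adjusted p = 0.675). For both, pig 10 lay inside the secretome range and pigs 18 and 40 below it. Without pig 40 the differences were 0.25 for BAG6 and 0.29 for BAG3. HSPA1L read -1.06, -1.34 and -2.05 with medium and -1.23 to -0.20 (median -0.74) with secretome (0.73 ± 0.31, limma adjusted p = 0.685), and here too only pig 10 lay inside the secretome range.

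In the normal region, with 4 against 2 pigs, HSPA4L differed by -0.55 ± 0.32, DNAJC18 by -0.84 ± 0.59 and BAG3 by 0.52 ± 0.45 (limma adjusted p = 1.00 for each). HSPA4L read -4.09 and -3.99 with medium in pigs 10 and 18, and -4.22, -4.61, -5.16 and -3.98 with secretome in pigs 11, 14, 15 and 16. Of these the value of pig 15 was not well above background, and the groups overlapped. BAG3 read 2.15 and 1.63 with medium and 2.56, 2.21, 2.20 and 1.83 with secretome, again with overlap. The signal of DNAJC18 followed the scan series, as described below. Of these pigs only 18 (medium) and 16 (secretome) were in the first series, so series and arm are not balanced here. The difference of effects between core and border zone was 2.21 ± 0.98 for HSPB3 and 0.57 ± 0.25 for DNAJC24 (limma adjusted p = 0.841 for both), and without the core array of pig 40 it was 0.14 for HSPB3. DNAJC24 read 1.67 in the border zone of pig 40, against 0.20 and 0.14 in the other medium border zones, and without that array its difference of effects was 0.12. For DNAJB12 it was -0.36 ± 0.18 (limma adjusted p = 0.841).

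**Figure D5:**
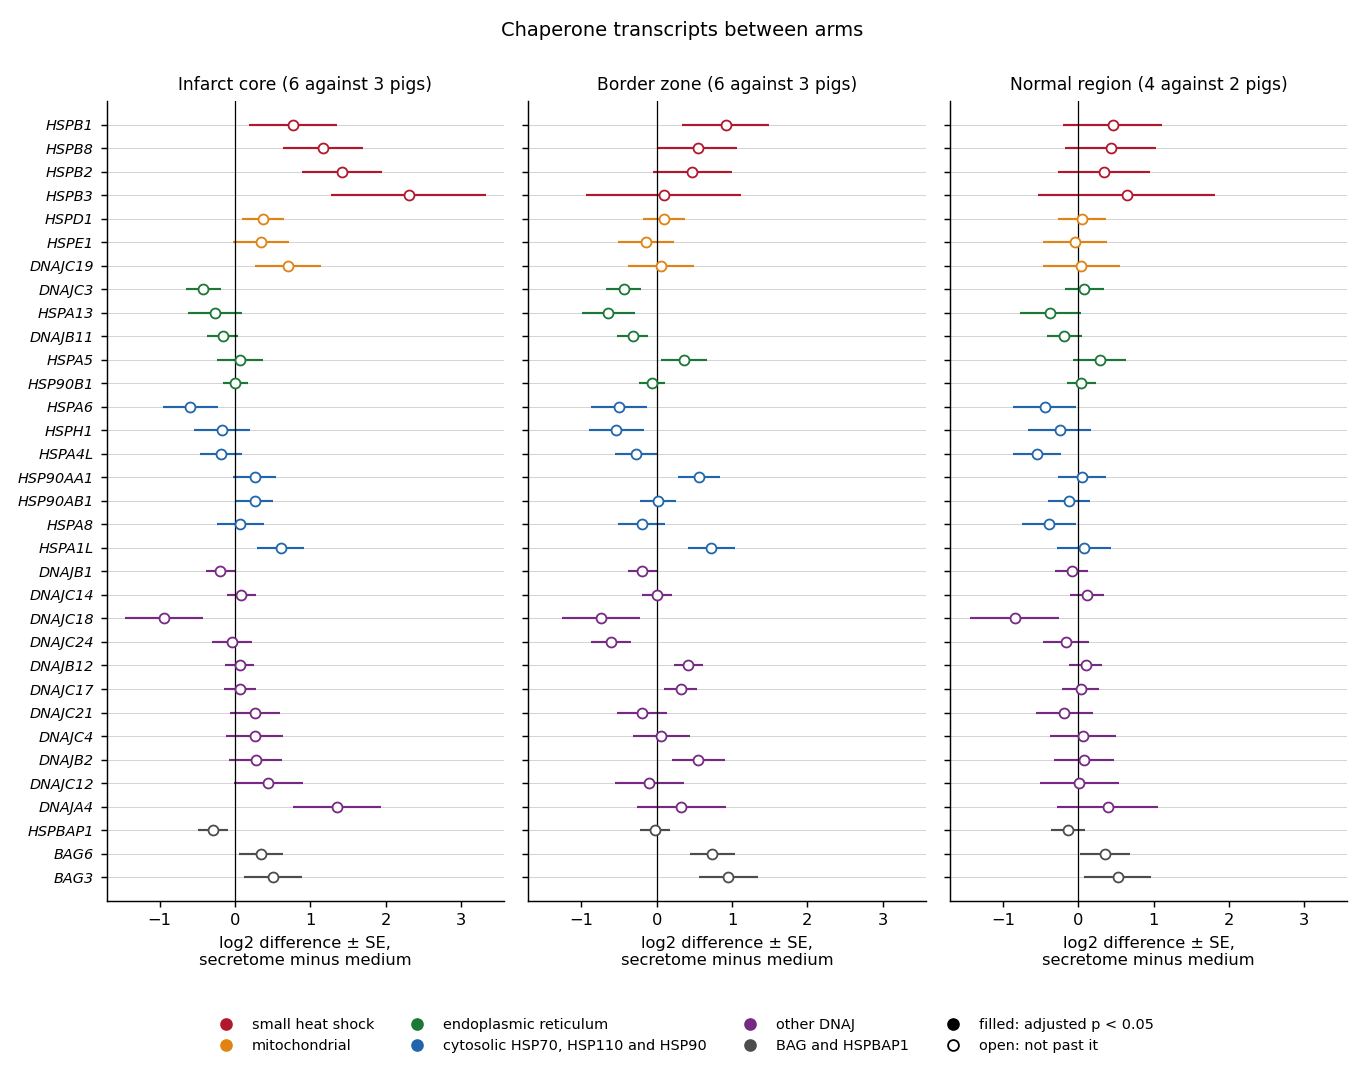
Log2 difference between secretome and medium with its SE for 33 chaperone genes (rows, coloured by class) in infarct core, border zone and normal region; filled points would have passed limma's adjusted p of 0.05, and none did. HSPB3 lies farthest right in the core at 2.31 with an SE of 1.03, and DNAJC18, whose signal followed the scan series, lies left of 0 in each region.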

How the data were processed

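RNA of 24 tissue samples from 9 pigs was hybridized to 1-colour Agilent arrays, 1 per sample. Spot brightness was deposited as scanner output, and the intensity used here, the processed signal, had its background subtracted in Feature Extraction (version 10.7.3.1 per the file headers). The authors' processed values, also deposited, are on the log2 scale. The submitters' processing notes name limma 3.14.4, and their normalization method is not given in the sources used here. Column medians were 7.68 to 7.69, and after centring of each probe all 24 columns fitted their own array better than any other (correlations 0.728 to 0.825). They served as an alternative only, and how they were centred stays unknown.

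Flagged spots were left out (1 to 27 per array), signals were divided by the array's 75th percentile and put on the log2 scale, and 34362 probes well above background on at least 3 arrays were kept. Genes were named through RefSeq by accession for 9240 probes and by gene ID for 1466, and from the files for 3532; 14238 probes had 1 symbol, 39 several and 29326 none. A gene was read from its brightest kept probe. limma 3.58.1 with statmod 1.5.0 and the data.table package (1.17.8) in R 4.3.3 fitted 1 mean for each combination of region and arm to all kept probes, with pig as a random block (correlation 0.548); the code was tested on simulated data. Region comparisons weight both arms equally. Per the labels the regions of a pig come from 1 animal; deviations of 21 same-pig pairs correlated at 0.583 on average (lowest 0.119), those of 94 pairs of different pigs in the same scan series at 0.439, and those of 118 pairs of different pigs in the other scan series at -0.454. Scan series entered the model only as an alternative.

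Members, lists and named genes were chosen with earlier results of these data known. Values per array are given for the 5 highest and 5 lowest members of a region comparison, the 3 of smallest p of a secretome comparison, and a fixed set. Up to 4 partner genes per list are named, by smallest p, and other names were chosen after their values were seen. Alternatives were other scalings, background corrections, filters, probe choices and blocks, each scan series alone and each pig left out. Tables and figures were made with pandas 2.3.3, numpy 2.4.6 and matplotlib 3.10.9 under Python 3.11.15.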

Additional observations from a re-analysis of the deposited data

Results flagged for a closer look

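Among 99 pairs of member and group with 4 to 10 arrays, 8 held an array that stood apart from the rest of its group by Dixon's criterion, where chance gives about 1 in 20. In the normal region with secretome, pig 16 stood apart in 6 members: BAG6 (5.79 against 6.21 to 6.25 in the other 3 pigs), DNAJC18 (2.84 against 1.09 to 1.27), DNAJC4 (1.93 against 2.62 to 2.74), HSP90AA1 (5.47 against 5.95 to 6.00), HSPA5 (1.24 against 1.97 to 2.06) and HSPB1 (6.41 against 7.71 to 7.88), all in log2 relative signal. Pig 16 is the only pig of the first scan series in that group, and the part of the scan series in these values was not tested. In the same group pig 11 stood apart in DNAJC19, at 4.59 against 4.18 to 4.20. In the border zone with secretome, pig 13 stood apart in HSPB2, at 6.03 against 5.28 to 5.56. No member's secretome effect differed between infarct core and border zone past the threshold.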

How the results depend on the processing

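No member was called in the border zone against the normal region or in the difference of secretome effects under 24 alternatives, nor in the secretome comparison of each region under 23, since pig as a fixed block could not be fitted there. Within the second scan series the medium arm is 1 pig, assumed to vary like the other groups. Between infarct core and normal region, 7 rose and 20 fell; within the first scan series 4 rose, and within the second 12 fell. Leaving out each pig gave 5 to 7 higher and 17 to 20 lower. Between infarct core and border zone, 3 rose and 17 fell. Under alternatives, 6 rose with quantile normalization, 6 with normexp, 6 in the authors' values and 5 with scan series as a covariate. Within the second scan series most of the 17 lost their call. Leaving out each pig gave 3 to 4 higher and 16 to 20 lower. With no pig block, 6 rose and 18 fell against the normal region and 3 and 14 against the border zone; with pig as a fixed block these were 7 and 20, and 4 and 17.

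HSP90AA1 turned against the normal region, from -0.43 to 0.053 (quantile), 0.045 (normexp) and 0.065 (the authors' values), and HSP90B1 turned against the border zone, from -0.14 to 0.32, 0.31 and 0.30, where it was called higher. The cause was not tested. Of 789 member values under alternatives in the core against the normal region, 739 kept their direction and side of the threshold or stayed uncalled, 43 lost the call and 4 gained it. Arrays without pig 40's core or border zone were added after seeing the data. The secretome values rest on 3 medium pigs, or 2 in the normal region, and the labels do not say whether a sample was 1 piece of tissue. Depth is limited by signal over background, which is low for HSPA6 and HSPA4L.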

Other observations

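DNAJC18, a J-protein of the endoplasmic reticulum membrane, followed the scan series and not region or arm. Its log2 relative signal was 2.09 to 3.70 on the arrays of the first scan series and 0.97 to 1.35 on those of the second, with no overlap, and pigs kept their level across regions: pig 40 read 3.70 and 3.56 in border zone and infarct core, and pig 10 read 1.05, 0.97 and 1.32 in normal region, border zone and core. Pig and scan series cannot be told apart here, since all arrays of a pig share a series.

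Probes that the array files describe as chaperones or their partners without giving a symbol lie outside the rule. They were looked at after the other values were seen. AHSA1 would be outside the rule by its name too. Of 22 such probes kept, only those named here and the one described as DNAJB1 above are reported. The 4 probes described as AHSA1, the activator of the HSP90 ATPase, were lower in the infarct core than in the normal region, with log2 differences of -1.08 to -0.89 (limma adjusted p under the threshold for each). A probe described as DNAJC11, a J-protein of the mitochondrial membrane complex that shapes cristae, differed by -1.03 ± 0.13, in the direction of DNAJC19, HSPD1 and HSPE1. The 2 probes described as DNAJC15, another mitochondrial J-protein, disagreed: one differed by -0.99 ± 0.24 and passed, and the other differed by 0.26 ± 0.28 and did not.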
